A study of Homo sapiens with 16 samples.

Results

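The 7 genes described here, *ZFP36*, *ZFP36L1*, *ZFP36L2*, *ELAVL1*, *KHSRP*, *ZC3H12A* and *TTC7B*, were grouped as regulators of mRNA decay at AU-rich elements downstream of the kinase MK2. They were chosen by name, and all 7 were found among the 13475 genes listed in both RNA-seq experiments of LN229, a human glioblastoma cell line. The first 6 genes encode proteins that act on mRNA. Of these, *ZC3H12A* encodes an enzyme that cuts stem-loops, so a grouping by AU-rich elements fits it less well. Control by MK2 was not measured for any of them. *TTC7B* encodes a scaffold of the plasma membrane complex that holds the lipid kinase PI4KA, is not known to bind RNA, and is therefore described apart.

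In the first experiment, LN229 cells without any named agent were grown in regular or in ischemic culture, which combines scarce nutrients with low oxygen. In the second, both cultures received DMSO as vehicle, VX745 to block p38α, or MK25 to block MK2. Each of the 8 groups had 2 libraries, 16 in all, and every group was the same parental line with no introduced allele. The labels gave neither the doses nor the hours in ischemic culture. The methods list VX745 at 2 µM and MK25 at 10 µM among the compounds used, without naming the RNA-seq libraries. They speak of independent experiments for in vitro work in general, but do not say whether the 2 libraries of a group came from separate cultures. If they did not, the p-values measure only a technical spread between libraries. The question behind the second experiment was what blocking p38 or MK2 changes in ischemic cells.

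AU-rich elements are stretches of A and U in the 3′ untranslated region (UTR) of short-lived mRNAs, many of which encode cytokines, growth factors and immediate early proteins. Tristetraprolin, the product of *ZFP36*, and its relatives from *ZFP36L1* and *ZFP36L2* bind these elements through a pair of zinc fingers and recruit the CCR4-NOT deadenylase, which removes the poly(A) tail before the mRNA is decapped or degraded by the exosome. When p38 activates MK2, MK2 phosphorylates tristetraprolin, 14-3-3 proteins dock on it, and the bound mRNA is spared. HuR, encoded by *ELAVL1*, binds similar elements and mostly stabilizes the mRNA. *KHSRP* encodes a KH domain protein that brings decay enzymes to AU-rich mRNAs, and *ZC3H12A* encodes regnase-1, an endoribonuclease that cuts stem-loops in the 3′ UTR of inflammatory mRNAs. None of the values below measures phosphorylation, protein or the rate of decay.

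Several of these regulators carry the element they act on, so their own sites are shown here beside those of 4 target mRNAs that were listed in both experiments. Each line gives 30 bases around a match to the nonamer TTATTTATT in the 3′ UTR of the MANE Select transcript. Bases are written 5′ to 3′ on the mRNA strand as DNA, with the nonamer in capitals. For several matches, as in *IL11* with 6, the 30 bases with the most copies of ATTTA were taken. Coordinates are for GRCh38, and all sites are exonic.
*ZFP36*, chr19:39409196-39409225, plus strand: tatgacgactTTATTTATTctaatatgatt
*ZFP36L1*, chr14:68788076-68788105, minus strand: aactgttggaTTATTTATTttagaaattcc
*ZFP36L2*, chr2:43223447-43223476, minus strand: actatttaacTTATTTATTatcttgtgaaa
*ELAVL1*, chr19:7961827-7961856, minus strand: atttatgtatTTATTTATTgaagtgtgaaa
*CXCL8*, chr4:73742664-73742693, plus strand: atgtaaagtaTTATTTATTtgaatctacaa
*PTGS2*, chr1:186674316-186674345, minus strand: atgatcatatTTATTTATTtatatgaacca
*VEGFA*, chr6:43786286-43786315, plus strand: ttgttatcatTTATTTATTggtgctactgt
*IL11*, chr19:55365946-55365975, minus strand: aagccagatcTTATTTATTtatttatttca

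The 3′ UTRs of *ZFP36*, *ZFP36L1*, *ZFP36L2* and *ELAVL1* each held 1 nonamer, and the pentamer ATTTA, which lies within the nonamer, occurred 5, 8, 5 and 13 times in them. *KHSRP* had 1 pentamer and 0 nonamers, *TTC7B* had 15 pentamers in a 3′ UTR of 16804 bases and 0 nonamers, and *ZC3H12A* had 0 of either. Only the mRNA strand was searched, and overlapping matches were counted. Of 18780 MANE Select 3′ UTRs, 68.31% held at least 1 pentamer and 8.6% at least 1 nonamer. A match describes the sequence and does not show a bound site.

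In GRCh38 the genes lie at chr19:39406847-39409407 (*ZFP36*, Entrez 7538), chr14:68787655-68796243 (*ZFP36L1*, 677), chr2:43222402-43226606 (*ZFP36L2*, 678), chr19:7958573-8005641 (*ELAVL1*, 1994), chr19:6413102-6424811 (*KHSRP*, 8570), chr1:37474580-37484377 (*ZC3H12A*, 80149) and chr14:90524564-90816430 (*TTC7B*, 145567). *ZFP36* and *ZC3H12A* are on the plus strand and the others on the minus strand.

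Between 20122017 and 37562668 reads per library lay on listed genes. *ZFP36* had the fewest reads of the 7 genes, 100 to 656 per library, and *KHSRP* the most, 6483 to 13452. The counting interval was therefore widest for *ZFP36*. Of the glial and mesenchymal markers, *VIM*, *CD44*, *NES* and *FN1* were at a log2 value of at least 8.40 in all libraries, *GFAP* was at 1.06 at most and *OLIG2* at 3.09 at most, and *PTPRC*, *EPCAM* and *PECAM1* were not listed. *SOX2*, a neural stem cell factor, was lower in every ischemic library (3.13 to 3.59 in the first and 3.58 to 3.93 in the second experiment) than in any regular one (6.47 to 6.48 and 5.59 to 6.07), and *EGFR* was higher in every ischemic library (up to 7.06 against 5.92 at most in the first, and 6.76 to 7.11 against 5.96 to 6.23 in the second experiment). The part of these markers in the results below was not tested. The hypoxia-induced genes *CA9*, *ANGPTL4* and *VEGFA* were higher in each ischemic library than in any regular library of the same experiment. RNA came from whole cultures, so fewer cells of a state and less RNA per cell cannot be told apart.

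Per kilobase of exon, the 7 genes spanned a wide range in regular DMSO cells. On the log2 scale of CPM (reads normalized to library size, as deposited) per kilobase, mean ± SD (n = 2), *KHSRP* was highest at 6.36 ± 0.01. *ZFP36L2* followed at 4.52 ± 0.09, *ELAVL1* at 4.20 ± 0.08, *ZFP36L1* at 3.56 ± 0.14, *ZC3H12A* at 3.40 ± 0.02 and *ZFP36* at 1.96 ± 0.12. The level of *TTC7B* was 0.14 ± 0.06. *ZFP36L1* and *ZC3H12A* differed by little more than their spread, and with the length of the MANE Select transcript in place of all exons *ZFP36L1* moved to 4.66, above *ZFP36L2*. Thus the tristetraprolin gene itself had the lowest level of the RNA-acting genes in these cells, and *ZFP36L2* or *ZFP36L1* the highest of its family.

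**Figure D1:**
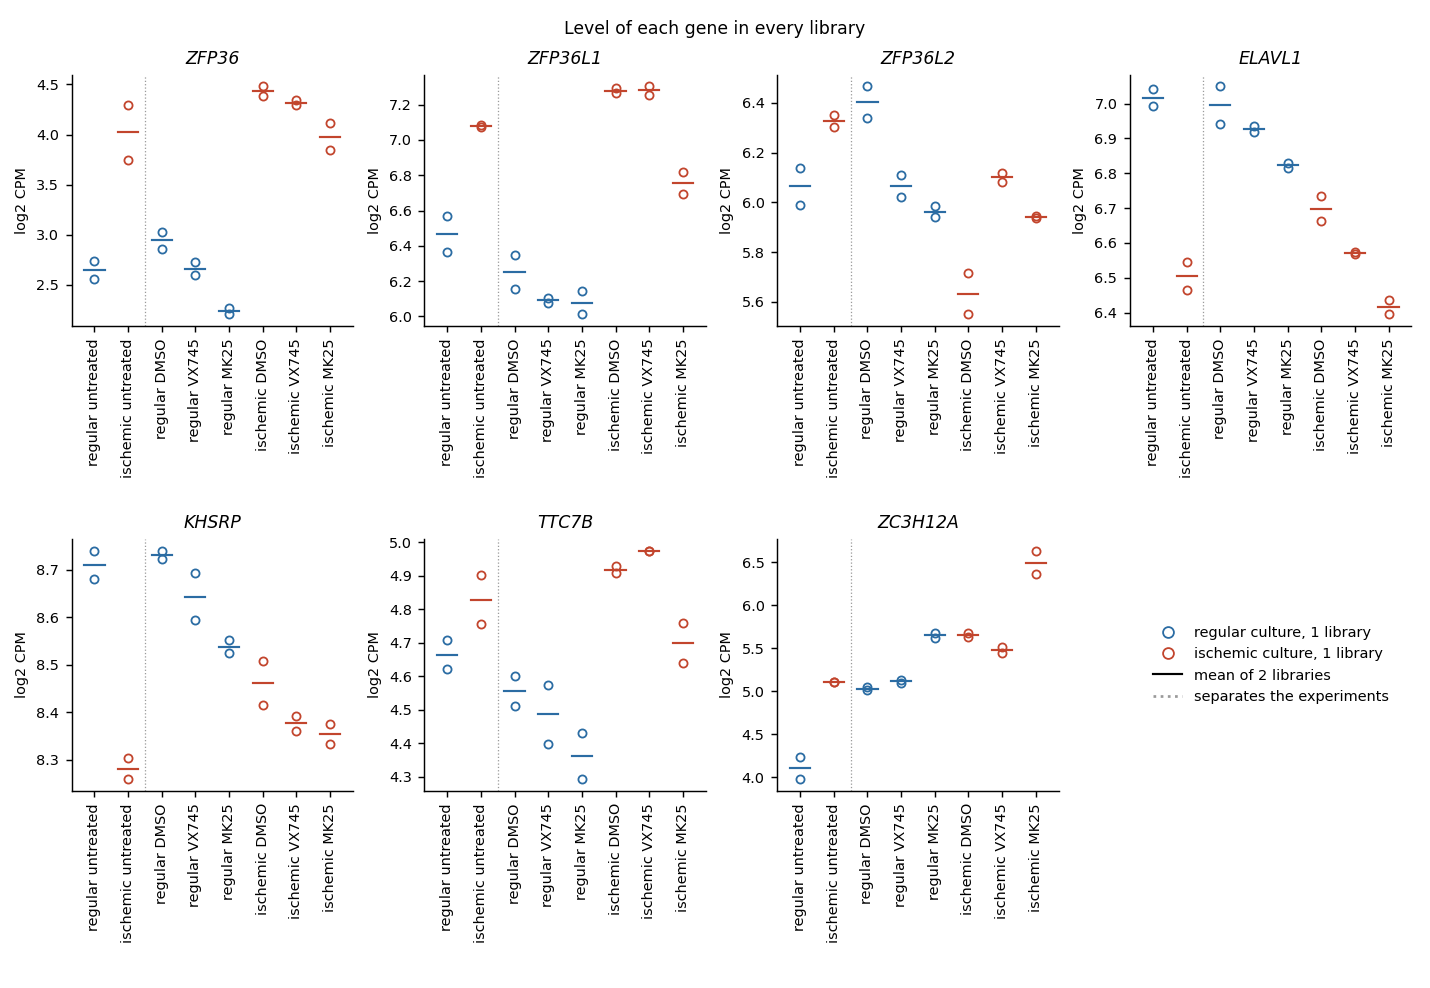
Level of each gene in every library, in log2 CPM on the y axis, with the 8 groups on the x axis; each circle is 1 library and each bar the mean of the 2. Ischemic libraries of *ZFP36* and *ZFP36L1* lie above all regular ones in both experiments, those of *ELAVL1* and *KHSRP* lie below, and *ZC3H12A* is highest with MK25 in ischemic culture.

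Ischemic culture moved genes of this group in both directions. *ZFP36*, *ZFP36L1* and *ZC3H12A* rose and *ELAVL1* and *KHSRP* fell in both experiments, whereas *ZFP36L2* rose without agent and fell with DMSO. In untreated cells 4 of 7 genes rose, where 35.2% of all genes tested rose, and 2 fell, where 35.2% of all genes fell, at an adjusted p (limma) under 0.05. With DMSO 4 of 7 rose, against 34.4% of all genes, and 3 fell, against 35.2%. More than 2 in 3 genes of the whole transcriptome thus changed with the culture, and the count of changed genes among the 7 is to be read against that. The 2 experiments were normalized separately and shared no library.

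*ZFP36* rose most in both experiments. Without agent it was at 6.69 and 5.90 CPM in the regular libraries and at 19.7 and 13.4 CPM in the ischemic libraries. With DMSO the values were 7.26 and 8.17 CPM in regular culture and 20.9 and 22.4 CPM in ischemic culture. Groups did not overlap in either experiment, although the untreated ischemic libraries lay far apart. The change was 1.37 ± 0.17 on the log2 scale (SE, adjusted p = 1.22e-05), or 2.59-fold, without agent, and 1.49 ± 0.11 (adjusted p = 2.42e-09), or 2.81-fold, with DMSO.

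*ZFP36L1* was at 82.6 and 95.1 CPM in untreated regular cells and at 135 and 136 CPM in untreated ischemic cells. With DMSO it went from 71.2 and 81.3 CPM to 154 and 157 CPM. The ischemic libraries agreed closely with each other and lay above all regular ones. The log2 change was 0.61 ± 0.08 (adjusted p = 1.84e-05) without agent and 1.03 ± 0.07 (adjusted p = 4.81e-10) with DMSO, which is 1.53-fold and 2.04-fold.

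*ZFP36L2*, the third member of the family, did not follow its relatives. In untreated cells its levels were 63.6 and 70.4 CPM in regular and 78.9 and 81.5 CPM in ischemic culture, a log2 change of 0.26 ± 0.08 (adjusted p = 0.00851). Without the first regular library the change was 0.19 and no longer called (adjusted p = 0.102), nor was it without the variance trend (adjusted p = 0.0539). With DMSO the levels were 80.8 and 88.5 CPM in regular and 46.9 and 52.6 CPM in ischemic culture, so that all ischemic libraries lay below the regular ones. The log2 change was -0.77 ± 0.07 (adjusted p = 1.72e-08), or 1.70-fold lower. Vehicle, experiment and normalization cannot be told apart as sources of the opposite signs, and the difference between the experiments was not tested.

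*ELAVL1*, which encodes the stabilizing protein HuR, was at 132 and 127 CPM in untreated regular cells and at 88.4 and 93.4 CPM in untreated ischemic cells. With DMSO it was at 133 and 123 CPM in regular and at 101 and 106 CPM in ischemic culture. Its log2 changes were -0.51 ± 0.07 (adjusted p = 2.83e-05) and -0.30 ± 0.06 (adjusted p = 0.000125), with no overlap of the groups. *KHSRP* fell in the same comparisons, from 410 and 427 to 316 and 306 CPM without agent and from 428 and 422 to 341 and 364 CPM with DMSO. Its log2 changes were -0.43 ± 0.07 (adjusted p = 8.02e-05) and -0.27 ± 0.05 (adjusted p = 0.000249), and the latter was -0.54 after quantile normalization.

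*ZC3H12A*, the regnase-1 gene, doubled without agent: 15.8 and 18.9 CPM in regular libraries became 34.6 and 34.4 CPM in ischemic ones, a rise of 1.00 ± 0.10 on the log2 scale (adjusted p = 2.79e-06). With DMSO, levels of 32.3 and 33.0 CPM became 51.1 and 49.5 CPM, a 1.54-fold rise (log2 0.62 ± 0.08, adjusted p = 1.42e-06). The regular DMSO libraries were thus close to the untreated ischemic ones, across tables that were normalized separately. *TTC7B*, at 24.6 and 26.1 CPM in untreated regular and 27.0 and 29.9 CPM in untreated ischemic cells, was not called there (log2 0.16 ± 0.09, adjusted p = 0.132) except without the first ischemic library (0.24, adjusted p = 0.0447). With DMSO it rose from 22.8 and 24.2 to 30.4 and 30.0 CPM (log2 0.36 ± 0.08, adjusted p = 0.000807).

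**Figure D2:**
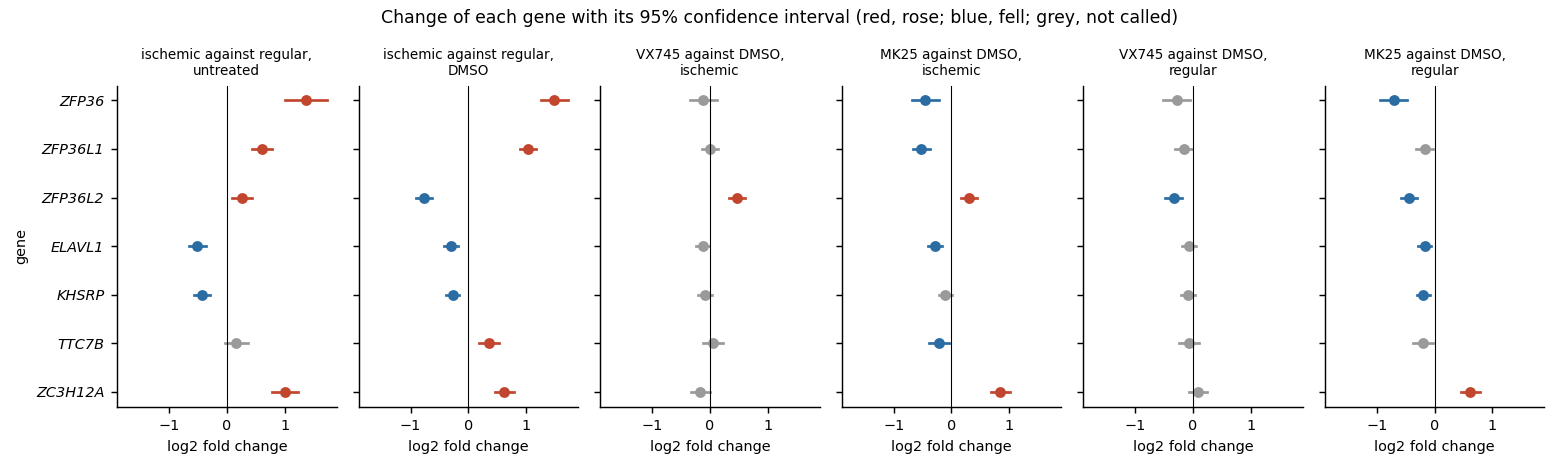
Log2 fold change of each gene (x axis) in the 6 comparisons of culture or inhibitor, with lines for the 95% confidence interval; red points rose, blue points fell and grey points were not called at an adjusted p under 0.05. VX745 in ischemic culture called *ZFP36L2* only, where 14% of all genes rose and 14.9% fell. MK25 moved 6 of the 7 genes there, where 19.8% of all genes rose and 22% fell.

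The p38α inhibitor VX745 left most of these genes near their DMSO level in ischemic cells. The exception was *ZFP36L2*, the 1 gene that rose, where 14% of all genes rose, and 0 of 7 fell by limma, where 14.9% of all genes fell. By voom 0 fell as well, and at an unadjusted p under 0.05 there were 2, *ELAVL1* and *ZC3H12A*. *ZFP36L2* was at 69.5 and 67.8 CPM with VX745 against 46.9 and 52.6 CPM with DMSO, a rise of 0.47 ± 0.07 on the log2 scale (adjusted p = 9.26e-05), or 1.38-fold. The other 6 genes had log2 changes of -0.17 to 0.06. For *ZFP36* the 95% confidence interval ran from -0.35 to 0.12 and for *ZFP36L1* from -0.14 to 0.15. Changes within these intervals were therefore not excluded. In a model of the compared groups alone, *ELAVL1* (-0.13, adjusted p = 0.0395) and *ZC3H12A* (-0.17, adjusted p = 0.0303) were called as well.

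The MK2 inhibitor MK25 changed more of them. In ischemic cells 2 of 7 genes rose, where 19.8% of all genes rose, and 4 fell, where 22% of all genes fell. *ZFP36* and *ZFP36L1*, which ischemic culture had raised, were lower with MK25, whereas *ZC3H12A* rose further. VX745 and MK25 were compared with the same DMSO libraries.

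*ZC3H12A* reached its highest level of the whole series in ischemic MK25 cells, at 99.4 and 82.0 CPM against 51.1 and 49.5 CPM with DMSO and 43.5 and 45.9 CPM with VX745. The groups were well apart. The rise over DMSO was 0.85 ± 0.08 on the log2 scale (adjusted p = 2.94e-07), or 1.80-fold.

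*ZFP36L1* fell from 154 and 157 CPM with DMSO to 113 and 104 CPM with MK25, while both VX745 libraries, at 153 and 158 CPM, were level with DMSO. The log2 change with MK25 was -0.52 ± 0.07 (adjusted p = 1.56e-05), or 1.44-fold lower. *ZFP36* was at 17.3 and 14.4 CPM with MK25 against 20.9 and 22.4 CPM with DMSO and 19.6 and 20.4 CPM with VX745. Its change was -0.45 ± 0.11 (adjusted p = 0.00377) on the log2 scale and was -0.32 without the second ischemic MK25 library (adjusted p = 0.0741). Both genes nevertheless stayed above all of their regular libraries.

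*ZFP36L2* rose with MK25 as it had with VX745, to 61.6 and 61.2 CPM (log2 0.31 ± 0.07, adjusted p = 0.00156). *ELAVL1* was at 86.7 and 84.1 CPM with MK25 and fell by 0.28 ± 0.06 on the log2 scale (adjusted p = 0.000633), which placed it below all other libraries of the second experiment. *KHSRP*, at 332 and 322 CPM, was not called (log2 -0.11 ± 0.05, adjusted p = 0.120). *TTC7B*, at 27.0 and 24.9 CPM, was lower by a small margin (log2 -0.22 ± 0.08, adjusted p = 0.0413), and this call was lost without either ischemic DMSO library (-0.21 and -0.23), without either ischemic VX745 library (-0.22) and without the second ischemic MK25 library (-0.16, adjusted p = 0.240).

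In regular culture VX745 called few genes anywhere, 0.178% of all genes rising and 0.157% falling. Of the 7 genes 0 rose by limma, also at an unadjusted p under 0.05 and by voom, and 1 fell, *ZFP36L2*, from 80.8 and 88.5 CPM with DMSO to 65.0 and 69.0 CPM (log2 -0.34 ± 0.07, adjusted p = 0.0396). That call was lost without the second regular DMSO library (-0.27, adjusted p = 0.314) and remained in 5 of 12 fits with 1 library left out. *ZFP36*, at 6.04 and 6.63 CPM, lay below both DMSO libraries but was not called (log2 -0.28 ± 0.11, adjusted p = 0.252).

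With MK25 in regular culture 1 of 7 genes rose, where 7% of all genes rose, and 4 fell, where 5.21% of all genes fell. *ZFP36* was at 4.83 and 4.61 CPM, its lowest level in the series, from 7.26 and 8.17 CPM with DMSO. It fell by 0.71 ± 0.11 on the log2 scale (adjusted p = 0.000461), or 1.63-fold. *ZFP36L2* fell to 61.5 and 63.3 CPM (log2 -0.44 ± 0.07, adjusted p = 0.000335) and *ZC3H12A* rose to 51.3 and 49.0 CPM (log2 0.62 ± 0.08, adjusted p = 3.72e-05), the level of ischemic DMSO cells.

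The other 2 falls were small. *KHSRP* was at 368 and 375 CPM (log2 -0.19 ± 0.05, adjusted p = 0.0262), and without the first regular MK25 library its adjusted p was 0.112 (called in 8 of 12 fits with 1 library left out). *ELAVL1* was at 113 and 114 CPM (log2 -0.17 ± 0.06, adjusted p = 0.0489), with an adjusted p of 0.215 without the first regular DMSO library, which moved the change to -0.12, and was called in 1 of 12 such fits. *ZFP36L1*, at 64.5 and 70.7 CPM, was not called (log2 -0.17 ± 0.07, adjusted p = 0.112) except without the first regular DMSO library (-0.27, adjusted p = 0.0254), nor was *TTC7B*, at 21.6 and 19.6 CPM (log2 -0.19 ± 0.08, adjusted p = 0.132).

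Whether an inhibitor acted differently in the 2 cultures was tested by the interaction of inhibitor and culture. For VX745 the interaction was called for 11.8% of all genes and for 1 of the 7, *ZFP36L2*, by 0.80 ± 0.10 on the log2 scale (adjusted p = 0.000131). For MK25 it was called for 24.4% of all genes and for 2 of the 7. *ZFP36L2* again had the larger value, 0.75 ± 0.10 (adjusted p = 3.70e-05), as it fell with MK25 in regular and rose in ischemic culture. With either inhibitor its levels in the 2 cultures came together: with MK25 the regular and ischemic libraries overlapped, between 61.2 and 63.3 CPM. The interactions of VX745 and MK25 use the same DMSO libraries and are not independent of each other.

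*ZFP36L1* fell with MK25 by more in ischemic culture than in regular culture, with an interaction of -0.35 ± 0.10 on the log2 scale (adjusted p = 0.0139). This call was lost without the first regular DMSO library (-0.26, adjusted p = 0.0583), the second regular MK25 library (-0.29, adjusted p = 0.0541) or the second ischemic MK25 library (-0.29, adjusted p = 0.0674). It was also lost after quantile normalization (-0.25, adjusted p = 0.0937) and without the variance trend (adjusted p = 0.0650). For *ZFP36* the interaction with MK25 was 0.25 ± 0.16 (adjusted p = 0.267) and for *ZC3H12A* 0.23 ± 0.11 (adjusted p = 0.146), so that a difference between cultures was not shown for either. Without the second ischemic MK25 library the interaction of *ZC3H12A* was 0.36 (adjusted p = 0.0180).

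Compared directly in ischemic cells, MK25 and VX745 differed in 4 of the 7 genes. With MK25 1 was higher, where 8.22% of all genes were, and 3 were lower, where 10.2% were. *ZC3H12A* was 2.02-fold higher with MK25 (log2 1.02 ± 0.08, adjusted p = 4.92e-08), and *ZFP36L1* was 1.44-fold lower (log2 -0.52 ± 0.07, adjusted p = 2.98e-05). *ZFP36* (-0.34 ± 0.11, adjusted p = 0.0429) and *TTC7B* (-0.27 ± 0.08, adjusted p = 0.0259) were lower as well. Without the second ischemic MK25 library *ZFP36* was at -0.20 (adjusted p = 0.373) and *TTC7B* at -0.22 (adjusted p = 0.193), and either call was also lost without either ischemic VX745 library. With 1 library left out, *ZFP36* was called in 7 and *TTC7B* in 9 of 12 fits, and *ELAVL1* (-0.16, adjusted p = 0.0603) became called without either regular DMSO library (adjusted p = 0.0406). With the replicate number as a block the adjusted p of *ZFP36* was 0.0501.

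For *ZFP36L2* the inhibitors differed by -0.16 on the log2 scale, with a 95% confidence interval of -0.30 to -0.02 and an adjusted p of 0.112. In regular culture MK25 against VX745 called 1 gene higher, where 3.96% of all genes were, and 1 lower, where 1.43% were. *ZC3H12A* was higher by 0.53 ± 0.08 (adjusted p = 0.000226) and *ZFP36* lower by a log2 change of -0.42 ± 0.11 (adjusted p = 0.0342). The latter was lost without any one of the regular VX745 and MK25 libraries, and without the second regular VX745 library it was -0.36 (adjusted p = 0.251), and it remained in 6 of 12 such fits. The listed concentrations of the agents differ (2 µM VX745 and 10 µM MK25), so the values compare the treatments as applied and not matched doses.

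The order of the groups in the second experiment differed between the genes. By group means *ZFP36* went from regular MK25 (mean log2 CPM 2.24) through regular VX745 (2.66) and regular DMSO (2.94) to the ischemic groups. There MK25 (3.98) was followed by VX745 (4.32) and DMSO (4.43). *ELAVL1* had the cultures the other way round and the agents in the same order, from ischemic MK25 (6.42) up to regular VX745 (6.93), with regular DMSO above it. For both genes VX745 was not called against DMSO in either culture, so these orders do not show distinct levels. In *ZC3H12A* the regular MK25 (5.65) and ischemic DMSO (5.65) libraries overlapped, and ischemic VX745 (5.48) lay below both. In *ZFP36L2* ischemic DMSO was lowest (5.63) and regular DMSO highest (6.40), with all inhibitor groups between 5.94 and 6.10.

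Over the 12 libraries of the second experiment, *ZFP36* and *ZFP36L1* ran together (r = 0.97) and so did *ELAVL1* and *KHSRP* (r = 0.95). *TTC7B* varied with *ZFP36* (r = 0.95), and *ZFP36L2* with none of the others beyond r = 0.59 in size. These coefficients describe libraries that fall into a regular and an ischemic cluster, and therefore carry no test. Among 10053 genes with a mean log2 CPM of at least 3, the most alike to *ZFP36* were *DMWD* (r = 0.994) and *HGS* (0.993), to *ZFP36L1* *PLAUR* (0.990) and *E2F7* (0.989), and to *ZFP36L2* *ZNF512B* (0.929) and *LDOC1* (0.916). For *ELAVL1* they were *POLR1E* (0.984) and *TUBG1* (0.982), for *KHSRP* *NUP153* (0.984) and *DHX30* (0.979), for *ZC3H12A* *PLAAT3* (0.974) and *SQSTM1* (0.968), and for *TTC7B* *HAUS5* (0.974) and *SH3PXD2A* (0.973). *PLAUR*, the urokinase receptor gene, is itself on the list of AU-rich element targets below.

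Decay factors and other genes related to the 7 were examined by fixed lists, which were chosen with earlier results of these data known. For these lists the shares of all genes are those given above, 35.2% rising and 35.2% falling without agent, 34.4% and 35.2% with DMSO, 14% and 14.9% with VX745 and 19.8% and 22% with MK25 in ischemic culture. Among other proteins that bind AU-rich or decaying mRNA, 7 of 14 listed genes rose (50%) and 3 fell (21.4%) in untreated ischemic cells, and 7 of 15 rose (46.7%) and 5 fell (33.3%) with DMSO, so that the falls were at or below the share of all genes. *ZC3H12C*, a relative of regnase-1, rose by 0.99 and 0.41 on the log2 scale, and *PCBP1*, a poly(C)-binding protein, by 0.49 and 0.63. With VX745 and with MK25 in ischemic culture 7 of 15 fell (46.7%) and 1 rose, *N4BP1*, which encodes a ribonuclease of the same superfamily. *HNRNPD*, the AUF1 gene, was among those that fell with MK25 (-0.38).

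Of 18 deadenylation genes, 11 rose (61.1%) and 2 fell (11.1%) in untreated ischemic cells, with a median log2 change of 0.52, whereas with DMSO 7 rose (38.9%, near the 34.4% of all genes) and 4 fell (22.2%) around a median of -0.05. *BTG1*, which encodes an activator of deadenylation, rose most (1.57 and 1.45). *PAN2*, of the other poly(A) nuclease, rose by 0.92 and 0.93, while the CCR4-NOT subunit gene *CNOT9* fell (-0.59 and -0.45). *BTG1* was lower with either inhibitor in ischemic culture (-0.57 with VX745 and -0.56 with MK25).

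In the decapping list *XRN1*, the 5′ exonuclease gene, rose by 1.22 without agent and 0.58 with DMSO, and its partner *PATL1* by 1.11 and 0.85. The LSM ring genes *LSM3* (-0.99 and -0.81) and *LSM6* (-0.93 and -0.63) fell. In all, 5 of 16 rose and 6 fell without agent, and 5 rose and 7 fell with DMSO. Thus the shares were near those of all genes.

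Of 15 exosome and Ski complex genes, 7 fell (46.7%) and 3 rose (20%) without agent, and 8 fell (53.3%) and 3 rose (20%) with DMSO, beside 35.2% of all genes falling in either comparison. *EXOSC4*, a core subunit gene, fell on the log2 scale (-1.03 and -0.61). With MK25 in ischemic culture 10 of 15 fell (66.7%, against 22% of all genes), a median of -0.23 against 0.00 over all genes, and *SKIC8* fell most (-0.55). Likewise 6 of the 7 genes for 14-3-3 proteins, the docking partners of phosphorylated tristetraprolin, fell with MK25 in ischemic culture (85.7%, against 22% of all genes). Among them were *YWHAB* (-0.33) and *SFN* (-1.25), which had few reads, 57 and 62 with DMSO and 31 and 33 with MK25. With VX745 in ischemic culture 3 of the 7 fell (42.9%, against 14.9% of all genes) and 1 rose. Of the 15 exosome and Ski complex genes 4 fell (26.7%) and 1 rose with VX745.

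**Figure D3:**
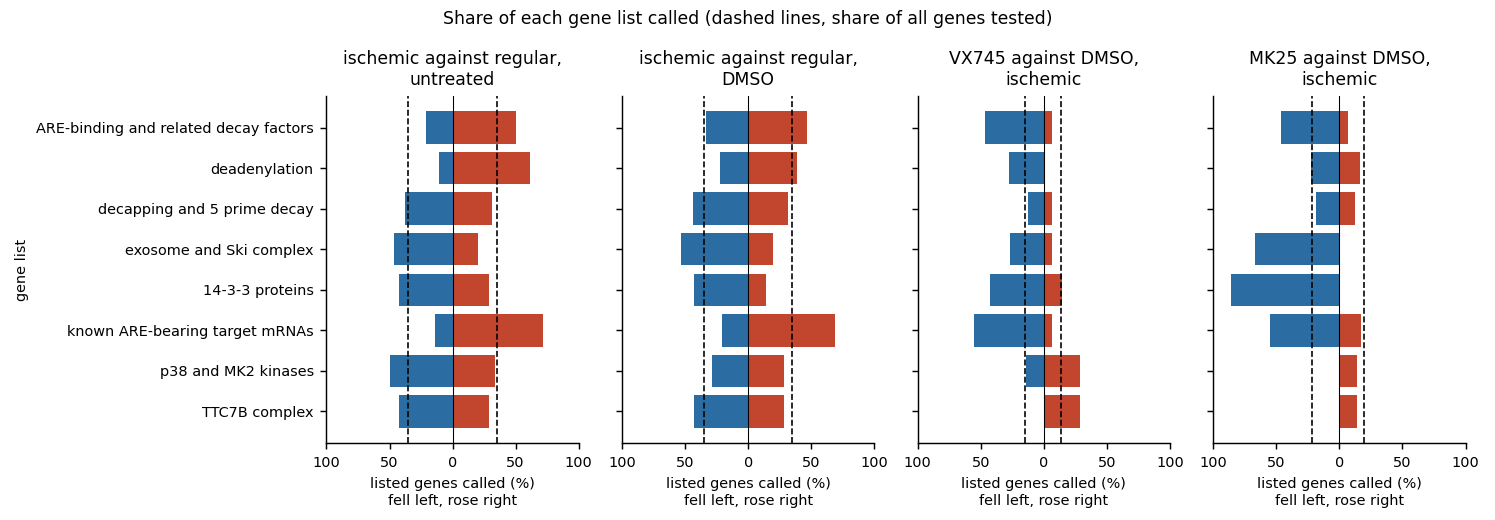
Share of the listed genes of each pathway list that rose (red, right) or fell (blue, left), in percent on the x axis, in the 4 comparisons of ischemia or of an inhibitor in ischemic culture; dashed lines mark the share of all genes tested. The target list rises above the line in both ischemia comparisons and falls beyond it with both inhibitors. The lists were chosen with earlier results of these data known.

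*MAPK14*, which encodes p38α, fell in ischemic culture without agent (log2 -0.64) and with DMSO (-0.45), and rose with VX745 (0.39) and MK25 (0.22) there. *MAPK13*, which encodes p38δ and had 10 and 11 reads in the ischemic DMSO libraries, fell there (-1.01) and rose with VX745 (0.96). *MAPKAPK2*, the MK2 gene, fell by 0.33 in untreated ischemic cells, and its change with DMSO was -0.12 and not called. Of the partners of TTC7B, *EFR3B*, a membrane anchor gene, rose in ischemic culture (0.47 and 0.97) and again in ischemic culture with VX745 (0.55), where *TTC7B* was not called, and with MK25 (0.97), where *TTC7B* fell. *TTC7A*, the paralog of *TTC7B*, fell in ischemic culture (-0.58 and -0.44).

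Of the 8 lists, known AU-rich element targets had the highest median change in both ischemia comparisons. This list was chosen with earlier results of these data known, so its shares describe the list and carry no test. It includes *VEGFA*, which is also used above as a hypoxia-induced gene. All 33 had a pentamer in the 3′ UTR and 57.58% a nonamer. *TNF*, *CXCL2*, *IER3* and *PLAU* were listed in neither experiment and *CSF3* in the second only, so the counts below leave them out where they were not listed. Of the 28 listed in the first experiment 20 rose (71.4%, against 35.2% of all genes) and 4 fell in ischemic cells, and of 29 listed in the second 20 rose (69.0%, against 34.4%) and 6 fell with DMSO, with median log2 changes of 0.96 and 1.54. *PTGS2*, the cyclooxygenase-2 gene, rose by 5.32 and 4.08, *VEGFA* by 4.85 and 3.91, and *CXCL8*, the interleukin-8 gene, by 4.40 and 2.64. *CCL2* (-2.09 and -2.44) and *CCND1*, the cyclin D1 gene (-1.55 and -1.07), fell. The part of mRNA decay in these values was not tested.

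**Figure D4:**
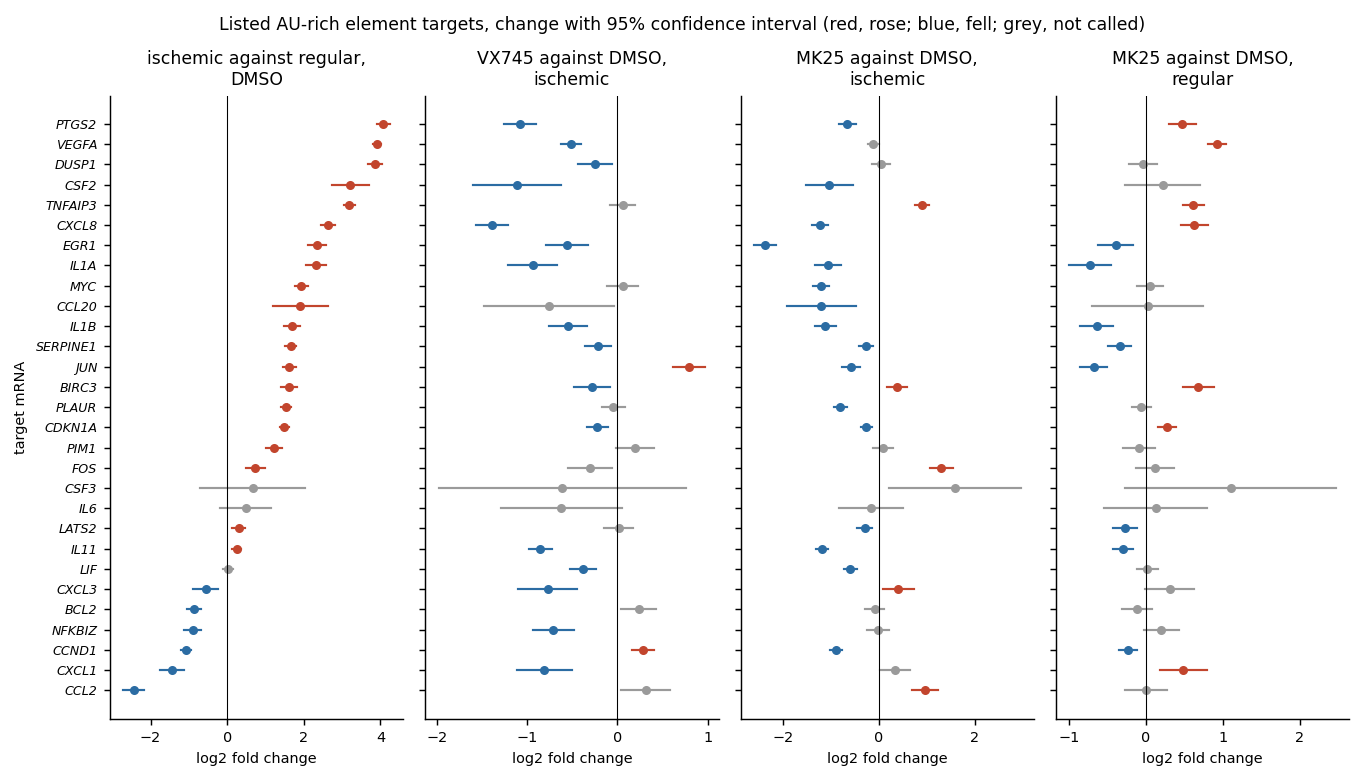
Log2 fold change (x axis) of each of the 29 AU-rich element targets listed in the second experiment (y axis, ordered by their change in ischemic DMSO cells), with lines for the 95% confidence interval; red points rose, blue fell and grey were not called. In ischemic culture 16 targets fell and 2 rose with VX745, where 14.9% of all genes fell and 14% rose. With MK25 16 fell and 5 rose, among them *FOS*, where 22% of all genes fell and 19.8% rose.

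With VX745 in ischemic culture 16 of the 29 targets fell (55.2%, against 14.9% of all genes) and 2 rose, and the median log2 change was -0.38 against 0.00 over all genes. *CXCL8* (-1.39), *CSF2* (-1.11) and *PTGS2* (-1.07) fell most, and *JUN* rose (0.79). With MK25 16 fell as well (against 22% of all genes) and 5 rose, with a median of -0.28. *EGR1* (-2.37), *CXCL8* (-1.23) and *CCL20* (-1.21) fell most, while *FOS* (1.30), *CCL2* (0.95) and *TNFAIP3* (0.90), the A20 gene, rose. In regular culture VX745 called 5 targets, all lower (17.2%, against 0.157% of all genes), and MK25 called 7 higher (24.1%, against 7%), among them *VEGFA* (0.92), and 8 lower (27.6%, against 5.21%), around a median of 0.02. The interaction of MK25 with the culture was called for 15 of the 29 targets, where it was called for 24.4% of all genes, 3 in the positive and 12 in the negative direction.

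Beyond the list, 3′ UTRs were grouped by motif over all listed genes. In untreated ischemic cells 41.1% of 297 genes with 2 or more nonamers rose, against 32.7% of 3095 genes without a pentamer, but with DMSO the order was the reverse, 34.1% against 38.2%. With VX745 in ischemic culture 24.4% of 299 genes with 2 or more nonamers fell, against 14.7% of 3245 without a pentamer, and with MK25 29.1% against 22.6%. The 3′ UTRs of the first class were far longer, with a median of 4076 bases against 386, and the part of length in these shares was not tested.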

How the data were processed

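RNA of the 16 LN229 libraries was sequenced as paired-end reads from a SMART-Seq and Nextera XT preparation, which does not mark strand, so reads of overlapping antisense genes cannot be told apart. The authors aligned the reads to GRCh38 with HISAT2 in Galaxy and deposited normalized log2 CPM for each gene, with edgeR named among their tools. The program that counted reads is not given in the sources used here. The deposited log2 values were used without further scaling, and CPM are 2 to the power of them. In each library 100% of the values lay on whole read counts within 0.05 reads, which gave the reads per gene. Entrez identifiers were matched to symbols for 99.4% and 99.3% of the 13559 and 14024 genes of the experiments.

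Each experiment was fitted with limma (version 3.58.1, R 4.3.3) with 1 mean per group, an empirical Bayes step and a variance trend. Within each comparison the two-sided p-values of all genes were corrected by Benjamini-Hochberg, and called means an adjusted p under 0.05. The method was tested on simulated data. The median log2 change over all genes was at most 0.01 in size in each of the 10 comparisons.

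The 7 genes and the lists were chosen with earlier results of these data known. Named beside them are up to 3 called genes that rose and 3 that fell most per list and comparison, and the 2 genes most alike to each of the 7. Replicate numbers were checked as pairs by the correlation of deviations from group means. It was 0.15 in the first experiment and -0.09 to 0.13 over 15 pairs of groups in the second, so they were not used as pairs. Libraries of a group differed by 3.29 to 9.40 times the counting noise (chi-square per gene), so none was a duplicate. Alternatives were a replicate block, voom on the recovered reads, quantile normalization, median centring, no variance trend, the compared groups alone, a minimum of 1 CPM, a minimum fold change, and each library left out. 3′ UTRs came from the GENCODE annotation of GRCh38. Protein sequences were not used here.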

Additional observations from a re-analysis of the deposited data

Results flagged for a closer look

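*ZFP36L2* had an interaction of inhibitor and culture of 0.80 on the log2 scale for VX745 (adjusted p = 0.000131) and 0.75 for MK25 (adjusted p = 3.70e-05). It was lower with either inhibitor in 2 of 2 regular libraries and higher in 2 of 2 ischemic libraries, relative to both DMSO libraries of the same culture. Both interactions use the same DMSO libraries and are not independent. Ischemic DMSO had the lowest mean log2 CPM (5.63) and regular DMSO the highest (6.40), with all inhibitor groups between 5.94 and 6.10. The part of the DMSO libraries in both interactions was not tested. *ZFP36L1* showed an interaction of -0.35 for MK25 (adjusted p = 0.0139), and this call was lost in 3 of the fits that left out 1 library. The 2 experiments gave *ZFP36L2* opposite responses to ischemia, 0.26 without agent and -0.77 with DMSO, and the difference between them was not tested since the tables were normalized separately. No group had 4 libraries, so single libraries were not tested as outliers.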

How the results depend on the processing

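With 2 libraries per group the spread rests on few libraries, and a fit that leaves 1 out assumes that the lone library varies like the others. Depth limits *ZFP36* most, with 100 reads in its lowest library. No member reversed a called change under any alternative. Of 1267 alternative values of the log2 changes, 1172 kept their direction and call, 68 lost the call, 10 gained one and 17 uncalled values changed sign. The cause was not tested.

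The numbers of the 7 genes called were 6 and 7 in ischemia without agent and with DMSO, 1 (VX745) and 6 (MK25) in ischemic and 1 and 5 in regular culture, 1 (VX745) and 2 (MK25) for the interactions, and 4 (ischemic) and 2 (regular) for MK25 against VX745. In the same order they were 3, 4, 0, 1, 0, 2, 1, 1, 1 and 0 with a fold change of at least 1.5, and 2, 2, 0, 0, 0, 0, 0, 0, 1 and 0 with at least 2. With only the groups compared, which is the same fit for ischemia without agent, the other 9 were 7, 3, 6, 0, 3, 1, 2, 6 and 1. Without the variance trend they were 5, 7, 1, 5, 0, 3, 1, 1, 2 and 1, with voom 6, 7, 1, 6, 0, 4, 1, 2, 4 and 1, and after quantile normalization 6, 7, 1, 5, 1, 4, 1, 2, 4 and 2. In the last, the MK25 interaction was called for *KHSRP* (adjusted p = 0.0359) in place of *ZFP36L1*. Median centring changed 1 count, MK25 against VX745 in ischemic culture (3), and a minimum of 1 CPM changed none. Leaving out 1 library gave 5 to 7, 7 to 7, 1 to 1, 4 to 6, 0 to 1, 3 to 4, 1 to 1, 1 to 2, 2 to 5 and 1 to 2 in the first order. Shares of all genes are given above for the main fit only. Counts under the other settings, with the block included, therefore cannot be set against all genes and show only how the calls depend on the setting.

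The replicate numbers were not used as pairs in the main fit, and whether the libraries were paired is not known. With them as a block the counts were 6, 7, 1, 6, 1, 4, 1, 2, 3 and 2 in that order, and the calls of *ELAVL1* with MK25 in regular culture (adjusted p = 0.0563) and of *ZFP36* for MK25 against VX745 in ischemic culture (adjusted p = 0.0501) were lost and no others. By the length of the MANE Select transcript, a choice made after seeing the data, *ZFP36L1* moved up among the levels per kilobase.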
